A study of Mus musculus with 21 samples.

Results

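The cytochromes P450 of families 1 to 4 are the enzymes with which the liver oxidises drugs, pollutants, steroids and fatty acids. A probe counted as one of theirs if its accession maps to a mouse symbol that starts with Cyp, a family number from 1 to 4, a subfamily letter and a member number. The genes Cyp2b9, Cyp2b10, Cyp2b13, Cyp2c39, Cyp2c54, Cyp2c55, Cyp3a13, Cyp4a10 and Cyp4a14 were left out of the set by the same rule. It found 64 probes for 47 genes, out of 34335 genes and unnamed probes on the array. Each gene was represented by the probe with the highest mean liver signal. Of the 47 genes, 44 were bright enough in liver to be tested, beside 17624 genes and unnamed probes (called features below) in all.

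A P450 enzyme is a haem protein of the endoplasmic reticulum that inserts an oxygen atom into its substrate with electrons passed on by P450 oxidoreductase. Families 1 to 3 are best known for foreign compounds and steroids, and family 4 for fatty acids and leukotrienes. Nuclear receptors and the aryl hydrocarbon receptor (AHR) induce many of these genes, and inflammation of the liver is known to lower the expression of many. In mice several are expressed mainly in one sex.

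The study asked how the liver responds to particles in the lung. Female C57BL/6 mice, 5 to 7 weeks old at purchase and acclimatised for 1 to 3 weeks, received a single instillation into the trachea. The exposed mice received 162 µg of titanium dioxide nanoparticles (nano-TiO2) in 40 µl of vehicle, and the control mice received 40 µl of the vehicle alone, which was saline with cell-free lavage fluid from the airways of untreated mice. Livers were taken 28 days or 1 day later. Whole-liver RNA of 1 mouse was labelled with Cy5 and hybridised to a 2-colour Agilent array together with Cy3-labelled Universal Mouse Reference RNA, with no dye swap. There were 21 arrays: 6 of TiO2 livers and 4 of control livers at day 28, and 6 of TiO2 livers and 5 of control livers at day 1. These arrays cover 1 dose, which the sample titles call High, 1 strain and 1 sex. The labels describe the samples as biological replicates.

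All values below are log2 ratios of liver over reference RNA, so that a difference of 1 between groups is a 2-fold difference. A ratio depends on what the reference RNA holds, and ratios of different genes are not compared as levels. In whole-liver RNA, fewer cells of a type and less RNA per cell cannot be told apart.

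Promoter sequences are shown for 4 genes, to introduce a regulatory element and a near-identical gene pair that the results return to. The sequences are the 250 bases before the start of each gene from RefSeq (GRCm38.p6), whose promoter table matched 38 of the 47 genes. The first pair lies on chromosome 9, Cyp1a1 at chr9:57697363-57697612 on the plus strand and Cyp1a2 at chr9:57683656-57683905 on the minus strand. Cyp1a1 is the classic target of AHR, whose response element has the core GCGTG. Capitals mark GCGTG or its reverse complement CACGC, and the TATAAA box.
Cyp1a1: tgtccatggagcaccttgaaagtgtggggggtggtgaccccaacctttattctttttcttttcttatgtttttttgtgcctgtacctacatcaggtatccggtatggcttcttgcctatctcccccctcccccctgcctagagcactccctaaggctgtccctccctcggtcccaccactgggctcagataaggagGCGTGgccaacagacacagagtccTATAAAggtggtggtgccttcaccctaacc
Cyp1a2: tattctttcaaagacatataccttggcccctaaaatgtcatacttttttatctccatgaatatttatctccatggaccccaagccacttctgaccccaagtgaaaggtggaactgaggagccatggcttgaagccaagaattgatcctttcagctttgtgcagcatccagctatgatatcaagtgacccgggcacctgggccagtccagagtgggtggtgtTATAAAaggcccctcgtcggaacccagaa

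In Cyp1a1 the core GCGTG began 54 bases and TATAAA 30 bases before the start. In Cyp1a2 TATAAA began 29 bases before the start, and this window held no GCGTG on either strand. Over the P450 genes matched, 8 of 38 windows (21.1%) held GCGTG on either strand, those of Cyp1a1, Cyp1b1, Cyp2j9, Cyp2j13, Cyp4f14, Cyp4f16, Cyp4f39 and Cyp4v3, against 28.2% of 27025 promoters in the table. TATAAA on either strand was found in 18 of the 38 windows (47.4%), against 13% of all promoters. A match is a description of these letters and not a shown binding site.

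The second pair lies on chromosome 7, Cyp2a4 at chr7:26306942-26307191 and Cyp2a5 at chr7:26835089-26835338, both on the plus strand. These genes encode closely related steroid and coumarin hydroxylases. Capitals mark the bases at which each window differs from the other.
Cyp2a4: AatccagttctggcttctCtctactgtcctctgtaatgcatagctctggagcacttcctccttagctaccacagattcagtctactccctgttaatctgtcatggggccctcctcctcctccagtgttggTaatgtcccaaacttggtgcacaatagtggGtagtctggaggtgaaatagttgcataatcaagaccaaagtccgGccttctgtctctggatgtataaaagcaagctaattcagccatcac
Cyp2a5: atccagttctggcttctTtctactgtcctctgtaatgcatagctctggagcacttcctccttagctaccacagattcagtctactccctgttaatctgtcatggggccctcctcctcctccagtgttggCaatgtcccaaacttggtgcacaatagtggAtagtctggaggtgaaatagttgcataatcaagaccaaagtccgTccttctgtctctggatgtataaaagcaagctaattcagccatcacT

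An alignment of the pair held 4 mismatches and 2 gap columns in 251 columns, an identity of 97.6%. The windows of the female-biased genes Cyp3a41a and Cyp3a44 were 94.4% identical, those of Cyp3a16 and Cyp3a44 92.9% and those of Cyp3a41a and Cyp3a16 91.3%. Cyp3a41a and Cyp3a11 shared 72.9%, and Cyp1a1 and Cyp1a2 46.8%. These windows lie before the genes and do not show how alike the transcripts are. No pair of Cyp2c, Cyp2d, Cyp4a or Cyp4f was aligned, and probe sequences were not examined. A probe for a gene with near copies may also bind RNA of the copy, which was not tested. Values in the Cyp2a, Cyp2c, Cyp2d, Cyp3a, Cyp4a and Cyp4f subfamilies are therefore uncertain as to the single gene.

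The arrays were scanned on 3 days, and for most P450 genes the scan day held more of the variance than the group. On scan days 1, 2 and 3 there were 2, 2 and 2 arrays of TiO2 livers at day 28, 1, 2 and 1 of control livers at day 28, 2, 2 and 2 of TiO2 livers at day 1, and 1, 2 and 2 of control livers at day 1. Over the 43 P450 genes with a value on all arrays, scan day held a median of 68.3% of the variance and group 5.98%, against 35.6% and 8.73% over 17410 features. The mean ratio was higher on scan day 3 than on scan day 1 for 36 of these 43 genes (83.7%), against 47.8% of the features. Among genes with a mean ratio over 3 this held for 26 of 27 P450 genes (96.3%) and for 559 of 673 features (83.1%), with median differences of 0.97 and 0.56. Each comparison of the P450 set was therefore read both from group means alone and with scan day as a term in the model. Values of single genes and of lists beside the set are from group means alone unless scan day is named. With that term the median SD within groups over the P450 genes was 0.20, and without it 0.45. What differed between the scan days was not tested.

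**Figure D1:**
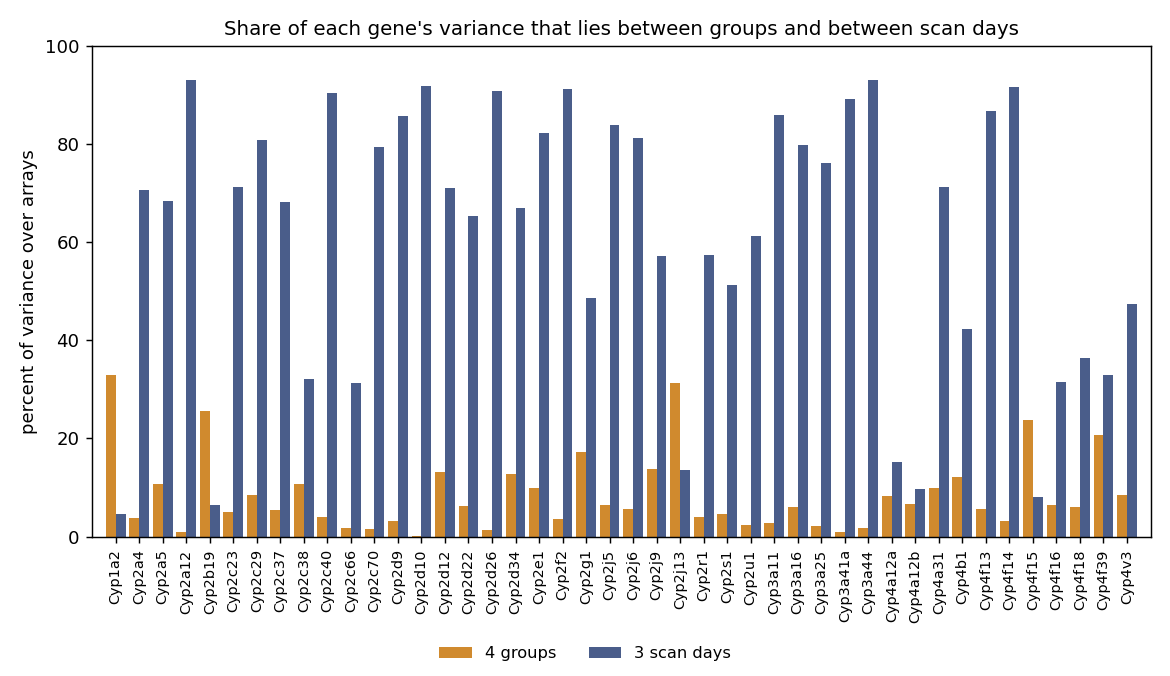
Percent of the variance of each P450 gene's log2 ratio over the arrays that lies between the 4 groups (left bar of each pair) and between the 3 scan days (right bar), with 1 pair of bars for each of the 44 tested genes. Cyp2a12 and Cyp3a44 reach 93% for scan day, and Cyp1a2, at 4.65% for scan day and 33% for group, is among the few genes with the higher bar for group.

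The arrays carried liver RNA by their markers. The liver channel exceeded background clearly at 12985 to 26616 probes per array. All 6 hepatocyte markers on the array were above background on all 21 arrays, with a median ratio per array of 5.47 to 6.97. The labels' text on RNA isolation names lung, although the labelled source is liver. Of 10 lung markers, 2 to 8 were above background on an array, with a median ratio of -0.14 to 0.10. Ager was above background on 0 of 21 arrays, Sftpc and Sftpb on 2, Sftpa1 on 4, Scgb3a1 on 7, Aqp5 on 9, Napsa on 13, Scgb1a1 on 17, Lamp3 on 20 and Sftpd on 21. The part of lung markers in the P450 values was not tested.

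TiO2 exposure was not followed by a change in any of these P450 genes that passed the test. At day 28, 0 of 44 genes had a limma adjusted p under 0.05, against 0% of all features. The day 1 count was also 0 of 44, against 0% of all features. The unadjusted p was under 0.05 for 0 of 44 genes at day 28 (0.925% of features) and for 0 at day 1 (1.72% of features). With scan day in the model it was under 0.05 for 2 of 44 genes at day 28, against 3.1% of features, and for 4 of 44 at day 1, against 4.09% of features, and no adjusted p was under 0.05. There was no gene for which the values of TiO2 and control livers did not overlap, at day 28 (0.284% of features) or at day 1 (0.119%).

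The direction of the differences was mixed. At day 28 the difference was above 0 for 18 and below 0 for 26 of the 44 genes, with a median of -0.02, and 50.8% of features were above 0. At day 1 it was above 0 for 14 and below 0 for 30 genes, with a median of -0.11, where 47.8% of features were above 0 and their median was -0.01. The day 28 count with scan day in the model was 22 above and 22 below 0, with a median of 0.00 and 47.9% of features above 0. For day 1 it was 20 above and 24 below 0, with a median of -0.03 and 45.6% of features above 0. The surplus of differences below 0 at day 1 was smaller once scan day was in the model.

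The intervals give the precision at the probes used. With scan day in the model, the 95% interval lay within 1 of 0, that is within 2-fold in either direction, for 44 of 44 genes at day 28 and for 44 of 44 at day 1. From group means alone this held for 40 genes at day 28 and 38 at day 1. It does not cover other probes of these genes, since the second probe of Cyp3a44 had a day 28 difference of 1.11 with scan day in the model. The change of the TiO2 effect between the times, taken as the effect at day 28 minus that at day 1, also passed the test for 0 of 44 genes (0% of features). Its unadjusted p was under 0.05 for 0 genes from group means alone (0.76% of features) and for 2, Cyp4f13 and Cyp2g1, with scan day in the model (2.89% of features).

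**Figure D2:**
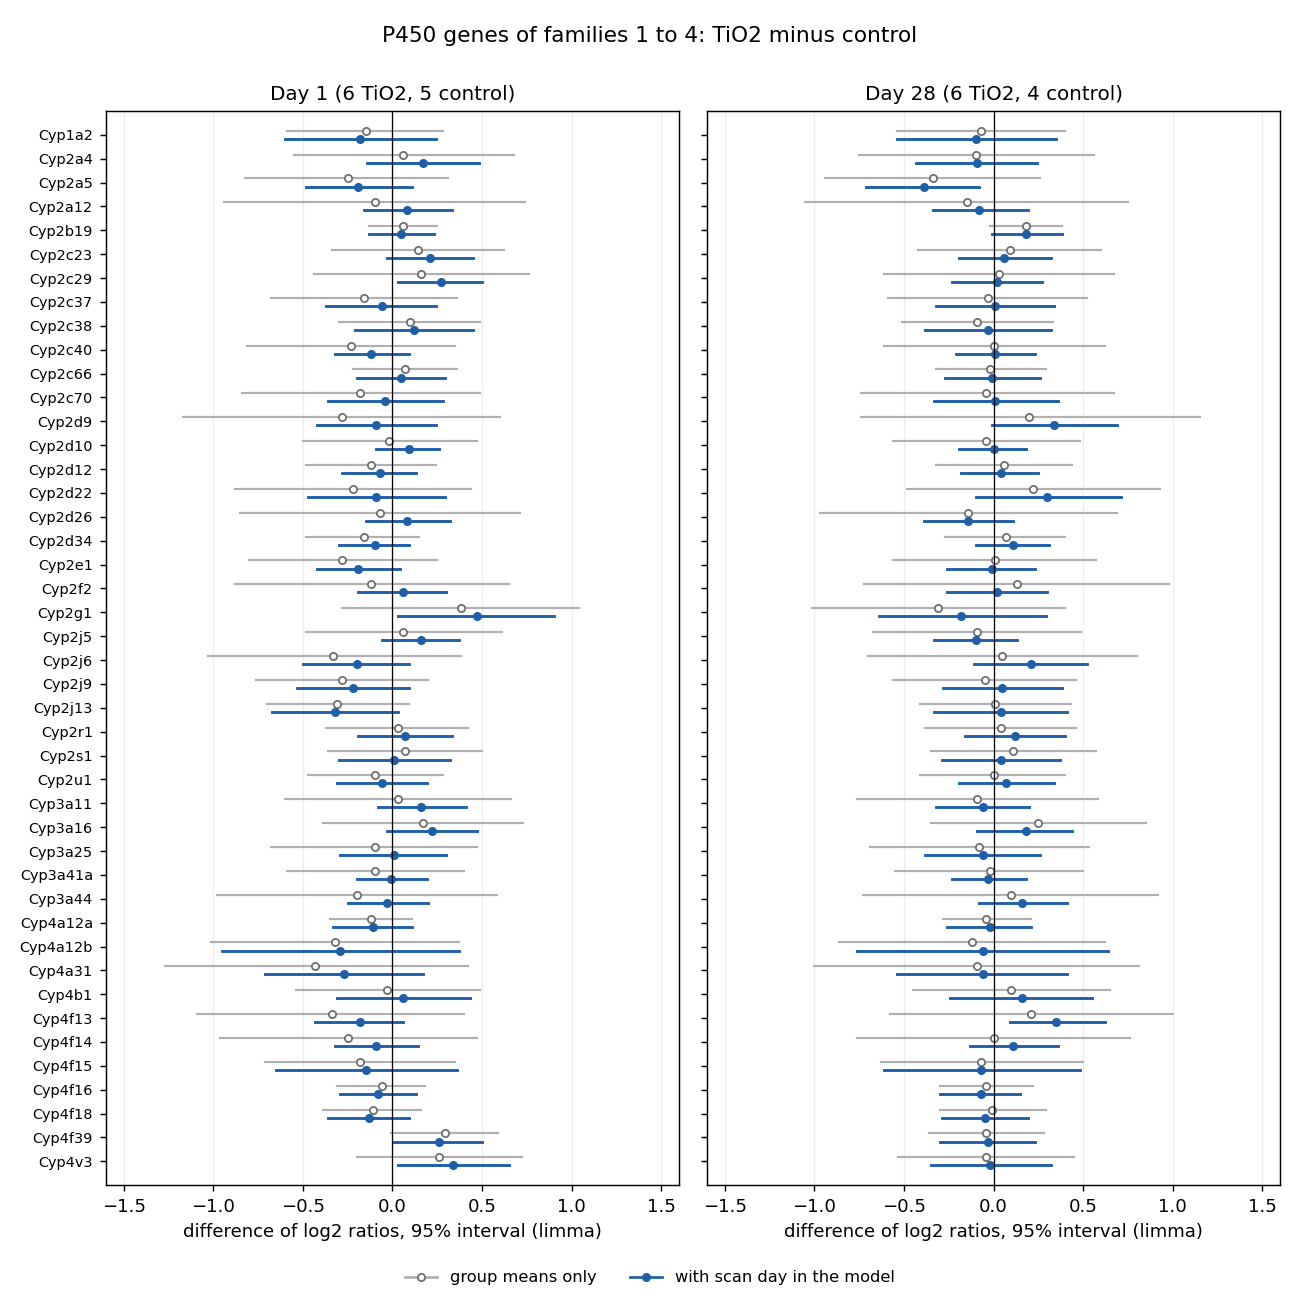
Difference of log2 ratios, TiO2 minus control, for each of the 44 tested P450 genes at day 1 (left panel) and day 28 (right panel). Points are limma estimates and lines their 95% intervals, open and grey from group means alone and filled and blue with scan day in the model. The blue lines are shorter, all lie within 1 of 0, and few leave out 0.

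Family 1 holds the AHR-inducible enzymes that oxidise aromatic hydrocarbons and aromatic amines. Cyp1a1, which responds to AHR ligands in many tissues, was not well above background in liver on any of the 21 arrays, and its probe was not above background in the reference channel either. It was not tested and has no fold. Cyp1b1, which acts mostly outside the liver, was well above background in liver on 1 array of TiO2 livers at day 28, 1 of control livers at day 28, 0 of TiO2 livers at day 1 and 1 of control livers at day 1, and was not tested.

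Cyp1a2, the AHR-inducible enzyme that hepatocytes carry without induction, was above background on all arrays. At day 28 its ratio lay between 3.38 and 4.24 in TiO2 livers, with a median of 4.03, against 4.05, 4.22, 4.27 and 3.60 in the 4 control livers. Ratios at day 1 lay between 4.00 and 4.98 in TiO2 livers, with a median of 4.32, against 5.24, 3.85, 4.38, 4.46 and 4.73 in the 5 control livers. The groups overlapped at both times, and the control livers at day 1 held both the highest and the lowest value of that day. The TiO2 minus control difference was -0.07 ± 0.22 (SE) at day 28 and -0.15 ± 0.21 at day 1, with 95% intervals of -0.54 to 0.40 and -0.59 to 0.28. Its other probe gave 0.10 at day 28 and -0.27 at day 1, or 0.18 and -0.15 with scan day in the model.

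The members of 2A hydroxylate steroids, nicotine and coumarin, and Cyp2a5 is known to be raised in several kinds of liver injury. At day 28 Cyp2a5 lay between 8.37 and 10.06 in TiO2 livers, with a median of 8.82, against 9.14, 9.48, 8.86 and 9.86 in control livers. At day 1 it lay between 8.73 and 9.65 in TiO2 livers, with a median of 8.97, against 9.21, 8.75, 9.13, 9.84 and 9.73 in control livers. The values overlapped. At day 28 the TiO2 livers held both the lowest and the highest value, and at day 1 the lowest values were 8.73 in TiO2 and 8.75 in control livers. The difference at day 28 was -0.34 ± 0.29 from group means alone and -0.39 ± 0.15 with scan day in the model, with an interval of -0.71 to -0.08 in the second (limma unadjusted p = 0.0167, adjusted p = 1). Within scan days 1, 2 and 3 it was -0.69, -0.35 and -0.16. At day 1 it was -0.25 ± 0.27, and -0.19 with scan day in the model.

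Cyp2a4, the near copy of Cyp2a5 and a female-biased steroid hydroxylase, had a mean of 8.54 ± 0.45 in TiO2 and 8.64 ± 0.56 in control livers at day 28 (SD, n = 6 and 4), and of 8.43 ± 0.42 in TiO2 and 8.37 ± 0.70 in control livers at day 1 (SD, n = 6 and 5). Its differences of -0.10 at day 28 and 0.06 at day 1 had opposite signs and were smaller than these SDs. Cyp2a12, another steroid hydroxylase, averaged 5.98 ± 0.69 in TiO2 and 6.13 ± 0.67 in control livers at day 28, and 6.01 ± 0.74 in TiO2 and 6.11 ± 0.82 in control livers at day 1. Scan day held 93% of its variance, and with scan day in the model its differences were -0.08 ± 0.13 at day 28 and 0.08 ± 0.12 at day 1.

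From subfamily 2B only Cyp2b19, an epoxygenase of skin keratinocytes, belonged to the set. It was above background in liver on 16 of 21 arrays. At day 28 its ratio was between 0.13 and 0.43 in TiO2 livers, with a median of 0.24, against 0.06, 0.04, 0.26 and -0.08 in control livers. The control value of 0.26 fell among the TiO2 values, and 6 of 6 TiO2 livers lay above the control mean. The difference was 0.18 ± 0.10 at day 28 (limma unadjusted p = 0.0701), with the same sign on all scan days at 0.16, 0.09 and 0.37. The day 1 difference was 0.06 ± 0.09.

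Among the 7 tested genes of 2C, which turn arachidonic acid into epoxides and oxidise drugs, differences at day 1 were above 0 for 4 and below 0 for 3, between -0.23 for Cyp2c40 and 0.16 for Cyp2c29. Those at day 28 lay between -0.09 for Cyp2c38 and 0.09 for Cyp2c23. Cyp2c29, an epoxygenase of the liver, lay at day 1 between 7.40 and 8.46 in TiO2 livers, with a median of 7.79, against 6.62, 7.67, 7.77, 8.11 and 8.39 in control livers. The control liver at 6.62 was below all 6 TiO2 livers and was scanned on day 1, while the other 4 control livers lay among them. The day 1 difference was 0.16 ± 0.29 from group means alone and 0.27 ± 0.11 with scan day in the model (limma unadjusted p = 0.0287, adjusted p = 0.991). Within scan days 1, 2 and 3 it was 0.82, 0.07 and 0.14, so that scan day 1, with 1 control array, gave most of it. At day 28 the difference was 0.03 ± 0.31, and 0.02 with scan day in the model.

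Cyp2c70, which makes the muricholic acids of mouse bile, averaged 6.89 ± 0.60 in TiO2 and 6.92 ± 0.66 in control livers at day 28, and 6.84 ± 0.51 in TiO2 and 7.02 ± 0.55 in control livers at day 1. Cyp2c37, an arachidonic acid hydroxylase, averaged 5.40 ± 0.47 in TiO2 and 5.43 ± 0.55 in control livers at day 28, and 5.49 ± 0.45 in TiO2 and 5.65 ± 0.32 in control livers at day 1. For Cyp2c40, which is female-biased, the means at day 28 were both 7.58, with SDs of 0.54 in TiO2 and 0.55 in control livers, and at day 1 they were 7.56 ± 0.52 in TiO2 and 7.79 ± 0.37 in control livers. None of these differences exceeded the SD within a group. Cyp2c23, named Cyp2c44 in other tables and an epoxygenase, had differences of 0.09 ± 0.24 at day 28 and 0.14 ± 0.23 at day 1. Cyp2c38, whose probe was above background in the reference channel on 0 arrays, had -0.09 ± 0.20 and 0.10 ± 0.19. Cyp2c66, above background in liver on 12 arrays, had -0.02 ± 0.15 and 0.07 ± 0.14.

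Subfamily 2D oxidises many basic drugs, and in mice Cyp2d9 is a male-biased testosterone hydroxylase. At day 1 all 6 tested genes had a difference below 0, between -0.28 for Cyp2d9 and -0.02 for Cyp2d10. In the model with scan day 4 were below and 2 above 0, between -0.10 and 0.09. Cyp2d9 lay at day 28 between 4.84 and 5.97 in TiO2 livers, with a median of 5.90, against 3.76, 6.19, 5.92 and 5.78 in control livers. The value of 3.76 stood apart from the other 3 control livers, which lay around the TiO2 median. The difference at day 28 was 0.20 ± 0.45 from group means alone and 0.34 ± 0.17 with scan day in the model, with 1.23, -0.09 and 0.12 within scan days 1, 2 and 3. The largest within-day value came from that single control array.

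Cyp2d22 had differences of 0.22 ± 0.34 at day 28 and -0.22 ± 0.32 at day 1, and Cyp2d26 of -0.14 ± 0.40 and -0.07 ± 0.37. Cyp2d10 averaged 4.43 ± 0.40 in TiO2 and 4.48 ± 0.32 in control livers at day 28, and 4.45 ± 0.44 in TiO2 and 4.46 ± 0.46 in control livers at day 1. Its interval in the model with scan day ran from -0.19 to 0.18 at day 28 and from -0.09 to 0.26 at day 1, among the narrowest of the set. Cyp2d12 and Cyp2d34 had differences of 0.06 ± 0.18 and 0.07 ± 0.16 at day 28, and of -0.12 ± 0.17 and -0.16 ± 0.15 at day 1.

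Cyp2e1, the ethanol-inducible enzyme that activates paracetamol and carbon tetrachloride, lay at day 28 between 6.02 and 7.22 in TiO2 livers, with a median of 6.51, against 5.98, 6.57, 6.61 and 7.20 in control livers. Its day 1 values lay between 6.03 and 7.32 in TiO2 livers, with a median of 6.61, against 6.80, 6.48, 6.84, 7.28 and 7.24 in control livers. The highest values of every group were those of scan day 3. The difference was 0.01 ± 0.27 at day 28 and -0.28 ± 0.25 at day 1. In the model with scan day it was -0.01 ± 0.12 and -0.19 ± 0.11, with intervals of -0.26 to 0.23 and -0.42 to 0.04.

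Cyp2f2, known for activating naphthalene in airway club cells and also present in liver, had no usable spot on TiO2 day 28 replicate 1, which the fit left out. Its means were 6.44 ± 0.45 in TiO2 (SD, n = 5) and 6.31 ± 0.60 in control livers (n = 4) at day 28, and 6.13 ± 0.72 in TiO2 and 6.25 ± 0.83 in control livers at day 1. The differences in the model with scan day were 0.02 ± 0.13 and 0.06 ± 0.12.

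Cyp2g1, a P450 best known from olfactory mucosa, had the highest day 1 difference of the set. At day 1 its ratio lay between 1.19 and 2.50 in TiO2 livers, with a median of 1.66, against 0.17, 1.88, 1.87, 1.46 and 1.35 in control livers. One control liver was far below all others, and the other 4 lay among the TiO2 values. The difference at day 1 was 0.38 ± 0.32 from group means alone and 0.47 ± 0.21 with scan day in the model (limma unadjusted p = 0.0354, adjusted p = 0.991). Within scan days 1, 2 and 3 it was 1.49, 0.12 and 0.12. At day 28 it lay between 1.15 and 2.41 in TiO2 livers, with a median of 1.72, against 1.30, 2.75, 2.66 and 1.52 in control livers, a difference of -0.31 ± 0.34. The change of the effect, day 28 minus day 1, was -0.64 ± 0.30 with scan day in the model (limma unadjusted p = 0.0461, adjusted p = 1). The reference channel was above background for this probe on 9 of 21 arrays.

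**Figure D3:**
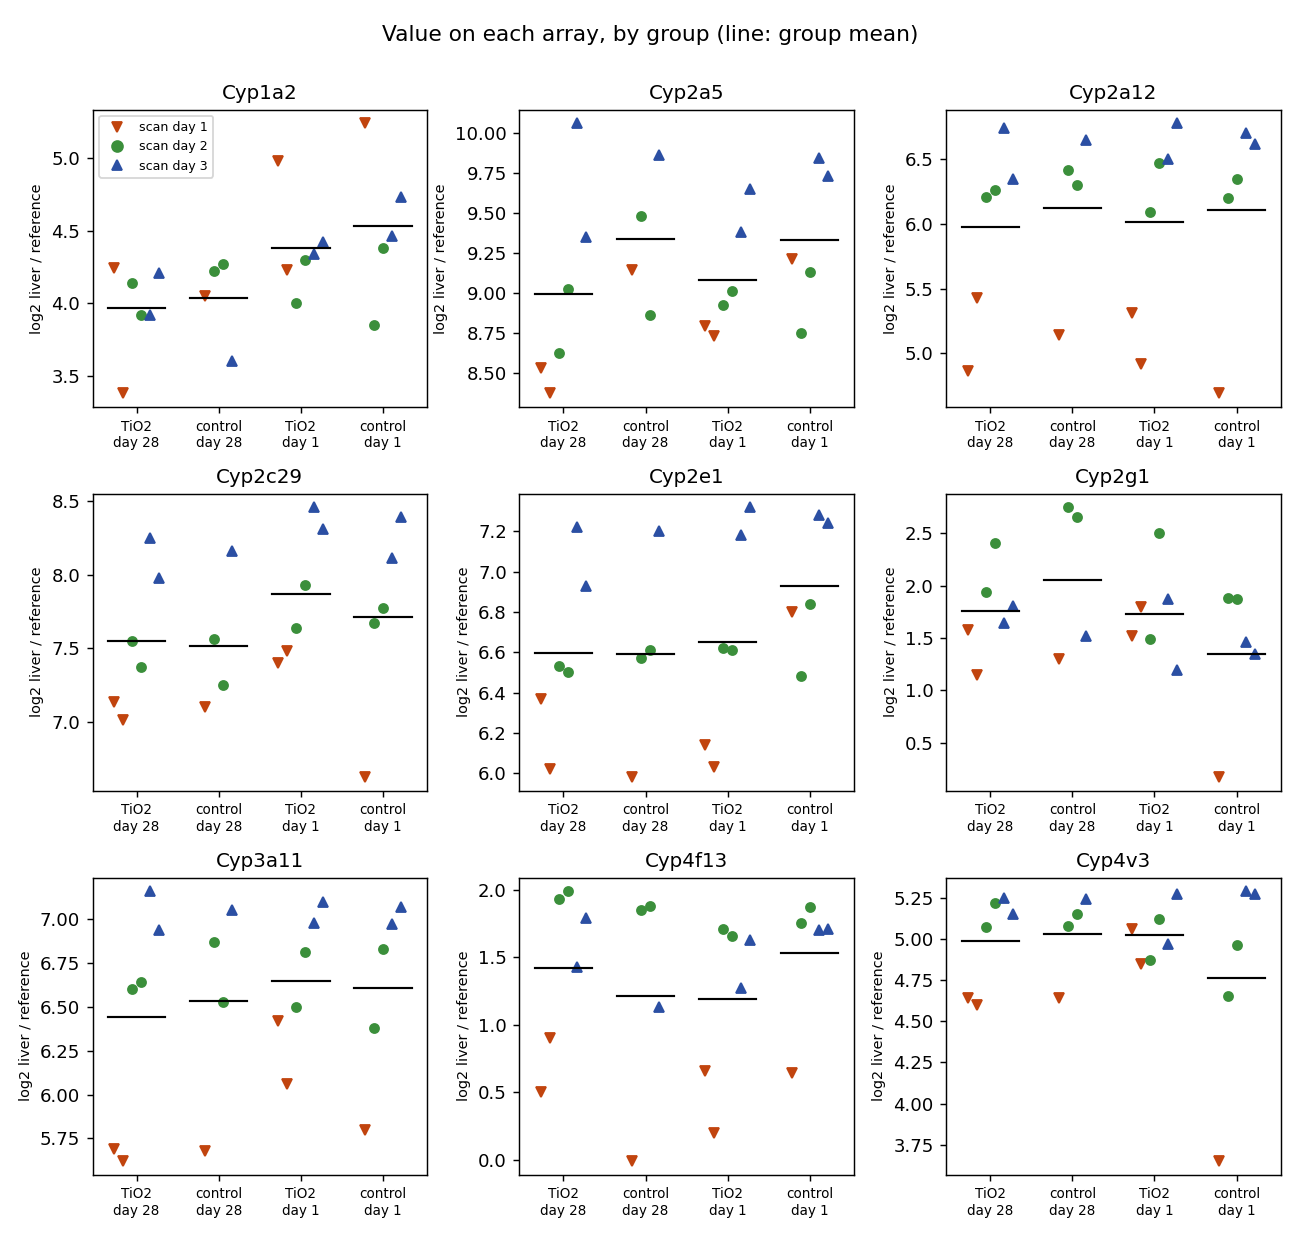
Log2 ratio of liver over reference on each array for 9 P450 genes, by group from left to right TiO2 day 28, control day 28, TiO2 day 1 and control day 1. Each point is 1 mouse, its shape and colour give the scan day, and the line is the group mean. Points of scan day 1 lie lowest in all 4 groups for Cyp2a12, Cyp3a11 and Cyp4f13, while for Cyp1a2 the highest value, 5.24, is from scan day 1.

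Subfamily 2J epoxidises arachidonic acid, and Cyp2j5 is an abundant form in mouse liver and kidney. Cyp2j5 averaged 7.20 ± 0.45 in TiO2 and 7.29 ± 0.43 in control livers at day 28, and 7.47 ± 0.40 in TiO2 and 7.41 ± 0.59 in control livers at day 1. The TiO2 minus control difference was below 0 at day 28 and above 0 at day 1, each time by less than those SDs. Cyp2j13 lay at day 1 between 1.41 and 2.34 in TiO2 livers, with a median of 1.94, against 2.61, 2.09, 1.95, 2.33 and 2.19 in control livers. Of the 6 TiO2 livers, 1 lay above the control mean. Its difference was -0.31 ± 0.19 at day 1 and 0.01 ± 0.20 at day 28. Cyp2j6 and Cyp2j9 had -0.33 ± 0.34 and -0.28 ± 0.23 at day 1, and 0.05 ± 0.36 and -0.05 ± 0.25 at day 28. The reference channel was above background on 4 of 21 arrays for Cyp2j13, 11 for Cyp2j6 and 2 for Cyp2j9. Cyp2j11 was above background in liver on 1 array and was not tested.

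Cyp2r1, which hydroxylates vitamin D in the liver, averaged 2.51 ± 0.35 in TiO2 and 2.47 ± 0.55 in control livers at day 28, and 2.63 ± 0.13 in TiO2 and 2.60 ± 0.27 in control livers at day 1. Cyp2u1, a fatty acid hydroxylase, averaged 0.73 ± 0.30 in TiO2 and 0.73 ± 0.44 in control livers at day 28, and 0.74 ± 0.27 in TiO2 and 0.84 ± 0.28 in control livers at day 1. Cyp2s1, expressed mostly outside the liver, had ratios below 0, with differences of 0.11 ± 0.22 at day 28 and 0.07 ± 0.21 at day 1. For these 3 genes each difference was smaller than its SE.

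Subfamily 3A holds the most broadly acting drug oxidases, and Cyp3a11 is the form induced through the pregnane X receptor. At day 28 Cyp3a11 lay between 5.62 and 7.16 in TiO2 livers, with a median of 6.62, against 5.68, 6.87, 6.53 and 7.05 in control livers. The values at day 1 lay between 6.06 and 7.10 in TiO2 livers, with a median of 6.65, against 5.80, 6.38, 6.83, 6.97 and 7.07 in control livers. Within each group the highest values were those of scan day 3. The difference was -0.09 ± 0.32 at day 28 and 0.03 ± 0.30 at day 1, and with scan day in the model -0.06 ± 0.12 and 0.16 ± 0.12, with intervals of -0.32 to 0.20 and -0.08 to 0.41.

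Among the female-biased genes of the subfamily, Cyp3a41a averaged 9.18 ± 0.34 in TiO2 and 9.20 ± 0.42 in control livers at day 28, and 9.12 ± 0.49 in TiO2 and 9.21 ± 0.42 in control livers at day 1. Cyp3a16 had the highest day 28 difference of the set from group means alone, 0.25 ± 0.29, with 0.17 ± 0.27 at day 1. Its day 28 values lay between 8.03 and 9.02 in TiO2 livers, with a median of 8.25, against 8.04, 8.26, 7.51 and 8.90 in control livers, so that 1 control liver lay below all others. Cyp3a44 had differences of 0.10 ± 0.40 at day 28 and -0.20 ± 0.37 at day 1 at its brightest probe, and of 0.93 and 0.27 at its second probe. Cyp3a25, a form of the adult liver, had -0.08 ± 0.29 and -0.10 ± 0.28.

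Family 4 hydroxylates fatty acids at or near their end. In subfamily 4A, whose members are known targets of the receptor PPAR-alpha, the 3 tested genes all had a day 1 difference below 0, with -0.43 ± 0.41 for Cyp4a31, -0.32 ± 0.33 for Cyp4a12b and -0.12 ± 0.11 for Cyp4a12a. Each of these 3 was close to its SE. Cyp4a31 lay at day 1 between 5.92 and 7.57 in TiO2 livers, with a median of 6.94, against 6.31, 7.02, 7.80, 7.69 and 7.64 in control livers. The difference was the lowest of the 44 at that time, and 1 of 6 TiO2 livers lay above the control mean. In the model with scan day it was -0.27 ± 0.21. At day 28 the differences were -0.09 ± 0.43 for Cyp4a31, -0.12 ± 0.35 for Cyp4a12b and -0.04 ± 0.12 for Cyp4a12a. The Cyp4a12 genes are male-biased, and the probe of Cyp4a12a was above background on 11 of 21 arrays of these female livers.

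Cyp4b1, an enzyme that activates toxins in lung and kidney, averaged 3.52 ± 0.37 in TiO2 and 3.42 ± 0.44 in control livers at day 28, and 3.18 ± 0.25 in TiO2 and 3.21 ± 0.65 in control livers at day 1. Cyp4f14, which inactivates leukotriene B, averaged 5.81 ± 0.60 in TiO2 and 5.81 ± 0.80 in control livers at day 28, and 5.79 ± 0.62 in TiO2 and 6.04 ± 0.49 in control livers at day 1. Both genes thus lay within their SDs at both times.

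Cyp4f13, a neighbour of Cyp4f14 on chromosome 17, had a low unadjusted p once scan day was in the model. At day 28 it lay between 0.50 and 1.99 in TiO2 livers, with a median of 1.61, against -0.01, 1.85, 1.88 and 1.13 in control livers. Day 1 values lay between 0.20 and 1.71 in TiO2 livers, with a median of 1.45, against 0.64, 1.75, 1.87, 1.70 and 1.71 in control livers. The groups overlapped at both times, and the low values were those of scan day 1. The difference at day 28 was 0.21 ± 0.38 from group means alone and 0.35 ± 0.13 with scan day in the model (limma unadjusted p = 0.012, adjusted p = 1), with 0.70, 0.10 and 0.48 within scan days 1, 2 and 3. At day 1 it was -0.34 ± 0.36 and -0.18 ± 0.12. The change of the effect, day 28 minus day 1, was 0.54 ± 0.17 with scan day in the model (limma unadjusted p = 0.00579, adjusted p = 1).

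Cyp4f39, which takes part in making skin ceramides, lay at day 1 between -0.11 and 0.58 in TiO2 livers, with a median of 0.23, against -0.27, 0.17, -0.16, 0.22 and -0.23 in control livers. In 5 of 6 TiO2 livers it was above the control mean, with a difference of 0.29 ± 0.14 (limma unadjusted p = 0.0587) and of 0.26 ± 0.12 with scan day in the model (limma unadjusted p = 0.0427, adjusted p = 0.991). Its liver signal was above background on 9 of 21 arrays, so that many of these values lie near the detection limit. At day 28 the difference was -0.04 ± 0.15. Cyp4f15, Cyp4f16 and Cyp4f18, the last known from neutrophils, had differences between -0.07 and -0.01 at day 28 and between -0.18 and -0.06 at day 1.

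Cyp4v3, the mouse counterpart of a human fatty acid hydroxylase gene mutated in a retinal dystrophy, lay at day 1 between 4.85 and 5.27 in TiO2 livers, with a median of 5.02, against 3.65, 4.65, 4.96, 5.29 and 5.27 in control livers. The control liver at 3.65 was scanned on day 1, and the other 4 ranged around the TiO2 median. The difference was 0.26 ± 0.22 from group means alone and 0.34 ± 0.15 with scan day in the model (limma unadjusted p = 0.035, adjusted p = 0.991), with 1.31, 0.19 and -0.16 within scan days 1, 2 and 3. At day 28 it was -0.04 ± 0.24.

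Time after instillation was read in both treatments, since control mice at day 28 were also older than those at day 1. In TiO2 livers 0 of 44 genes had a limma adjusted p under 0.05 for day 28 against day 1, against 0.034% of features, and in control livers also 0 of 44, against 0% of features. The count with scan day in the model was 0 in both, against 0.108% of features in TiO2 livers and 0% in control livers. The unadjusted p was under 0.05 for 0 of 44 genes in TiO2 livers (3.77% of features) and for 2 in control livers, Cyp2j13 and Cyp1a2 (3.04% of features). With scan day in the model it was under 0.05 for 4 of 44 genes in TiO2 livers, against 8.69% of features, and for 8 of 44 in control livers, against 7.6% of features. There was no gene whose values at the times did not overlap, in TiO2 (0.374% of features) or control livers (0.687%).

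The values at day 28 were lower than at day 1 in both treatments for 19 of the 44 genes, against 30% of features, and higher in both for 8, against 30.1% of features. These counts were 18 in the model with scan day, against 29.6% of features, and 9, against 31.2%. The median difference was -0.02 in TiO2 and -0.11 in control livers.

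Cyp1a2 was the gene with the lowest difference over time in TiO2 livers. All 6 TiO2 livers at day 28 lay below the mean of TiO2 livers at day 1, and all 4 control livers at day 28 below that of control livers at day 1. The difference, day 28 minus day 1, was -0.41 ± 0.20 in TiO2 livers (limma unadjusted p = 0.0525, adjusted p = 1) and -0.49 ± 0.23 in control livers (limma unadjusted p = 0.0458, adjusted p = 1). Within scan days 1, 2 and 3 it was -0.80, -0.12 and -0.32 in TiO2 livers and -1.18, 0.13 and -0.99 in control livers. Scan day 2, with 2 arrays in each group, thus showed little of it. The other probe of Cyp1a2 gave -0.18 in TiO2 and -0.55 in control livers.

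The other genes with an unadjusted p under 0.05 over time were so in a single treatment, most of them in the model with scan day. In TiO2 livers and that model, Cyp2c29 had a difference of -0.32 ± 0.11 (limma unadjusted p = 0.00683), with -0.37, -0.33 and -0.27 within scan days, and -0.07 ± 0.13 in control livers. Cyp2j5 had -0.27 ± 0.10 in TiO2 livers (limma unadjusted p = 0.011), with -0.30, -0.28 and -0.23 within scan days, and -0.01 ± 0.11 in control livers. For Cyp2j9 the values were 0.32 ± 0.14 in TiO2 livers (limma unadjusted p = 0.0335) and 0.06 ± 0.17 in control livers. The first 2 genes had the same sign and nearly the same size on all 3 scan days in TiO2 livers at the probe used. The other probe of Cyp2j5, above background on all 21 arrays, gave -0.06 in TiO2 livers, with and without scan day in the model.

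The genes that follow had an unadjusted p under 0.05 over time in control livers. Cyp2j13 had -0.20 ± 0.18 in TiO2 and -0.51 ± 0.21 in control livers from group means alone (limma unadjusted p = 0.0244 in control livers, adjusted p = 1), with -0.87, 0.03 and -1.20 within scan days in control livers. Cyp2g1 had 0.03 ± 0.20 in TiO2 and 0.67 ± 0.23 in control livers with scan day in the model (limma unadjusted p = 0.00836 in control livers), with 1.13, 0.83 and 0.12 within scan days there. In that model Cyp2a4 had 0.11 ± 0.14 in TiO2 and 0.37 ± 0.17 in control livers, and Cyp2d26 had 0.07 ± 0.11 and 0.29 ± 0.12. Cyp2j6 had 0.04 ± 0.13 in TiO2 and -0.37 ± 0.16 in control livers, Cyp4f13 had 0.23 ± 0.11 and -0.30 ± 0.13, and Cyp2d34 had -0.02 ± 0.09 and -0.24 ± 0.10. Of these 5, Cyp2a4, Cyp2d26, Cyp2j6 and Cyp2d34 kept 1 sign within all 3 scan days in control livers. The values of Cyp2d34 were -0.66, -0.02 and -0.26, and those of Cyp4f13 were -0.64, 0.06 and -0.58. The other probes of Cyp2a4, above background on all 21 arrays, gave -0.13 and 0.17 in control livers with scan day in the model. The smallest adjusted p over the 44 genes in that model was 0.394 in TiO2 and 0.516 in control livers. The test of the difference between the treatments is the change of the TiO2 effect given above, which passed for 0 genes.

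**Figure D4:**
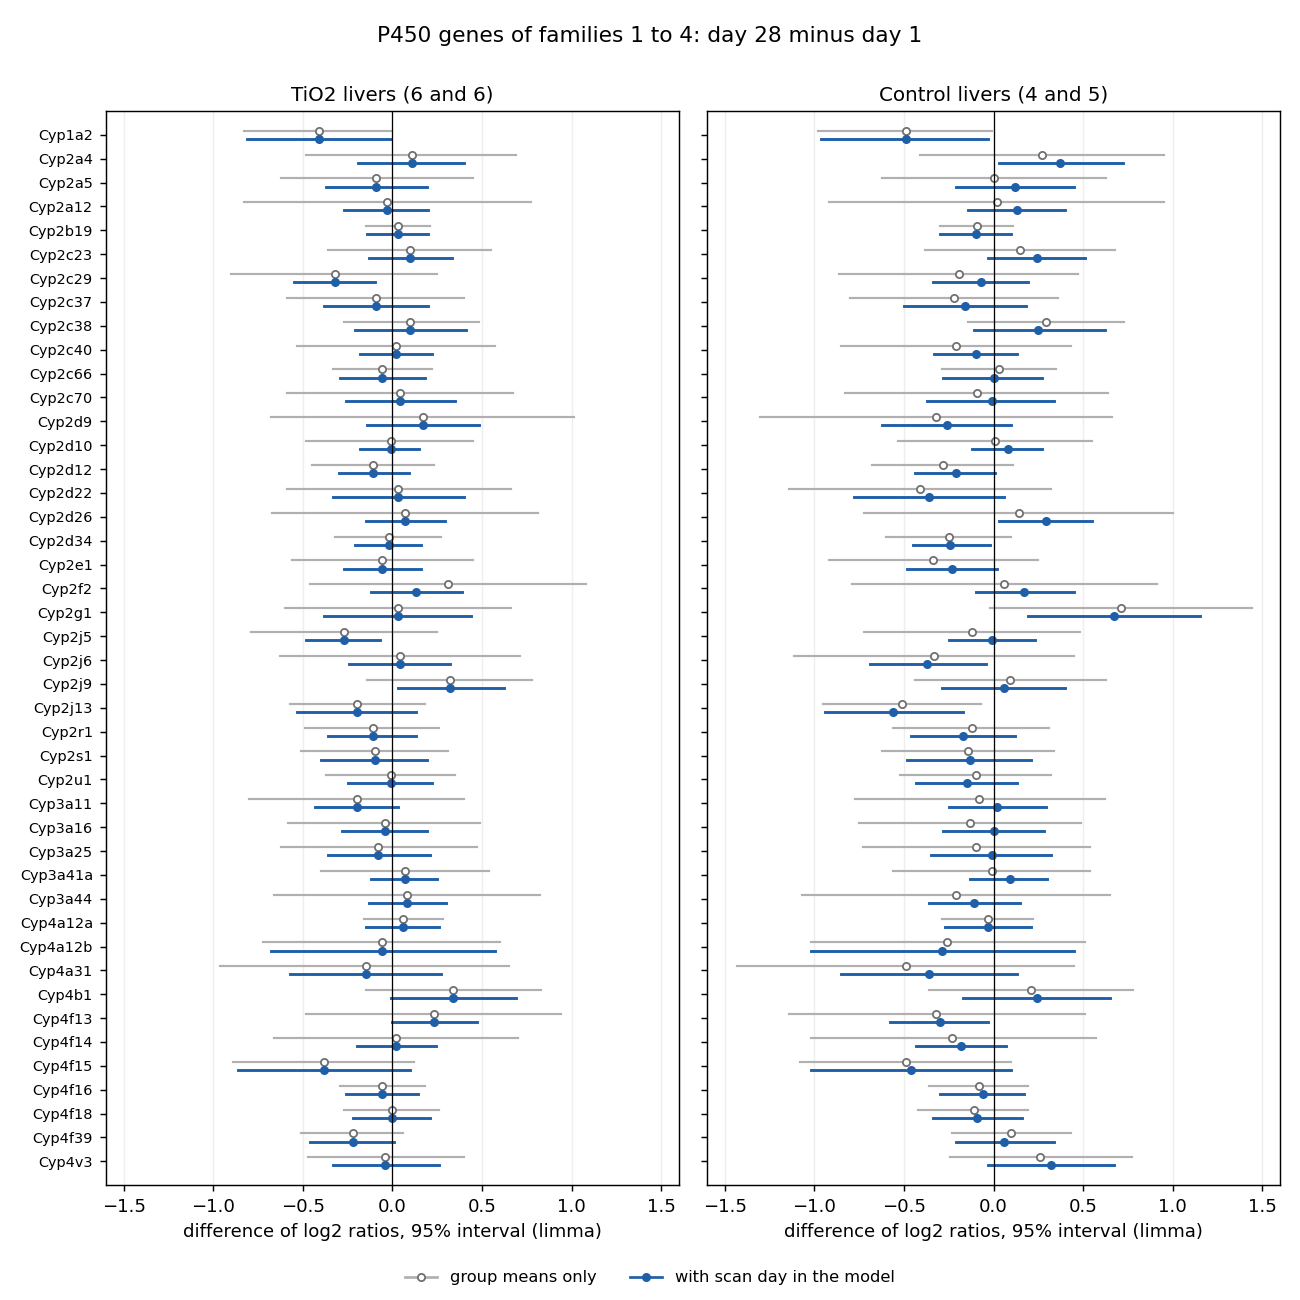
Difference of log2 ratios, day 28 minus day 1, for each of the 44 tested P450 genes in TiO2 livers (left panel) and control livers (right panel). Points are limma estimates and lines their 95% intervals, open and grey from group means alone and filled and blue with scan day in the model. Cyp1a2 lies below 0 in both panels, at -0.41 and -0.49, and Cyp2g1 stands at 0.03 in TiO2 and 0.71 in control livers.

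Genes that regulate or serve the P450 system were read from lists beside the set. Of 20 regulators, among them the receptor genes Ahr, Nr1i2, Nr1i3 and Ppara, 19 were tested and 0 had an adjusted p under 0.05 at either time. Their differences were above 0 for 8 and below 0 for 11 at both times, with medians of 0.00 at day 28 and -0.05 at day 1. Ahr averaged 1.35 ± 0.31 in TiO2 and 1.49 ± 0.22 in control livers at day 28, and 1.29 ± 0.26 in TiO2 and 1.34 ± 0.29 in control livers at day 1. Cebpb, a factor of the acute phase response, averaged 0.48 ± 0.35 in TiO2 and -0.24 ± 0.86 in control livers at day 1, a difference of 0.72 ± 0.29 (limma unadjusted p = 0.0205, adjusted p = 1). With scan day in the model the day 1 difference of Cebpb was 0.79 ± 0.25 (limma unadjusted p = 0.00442, adjusted p = 0.991). In control livers Cebpb was also 0.91 ± 0.32 higher at day 28 than at day 1 (limma unadjusted p = 0.00957, adjusted p = 1). Arnt, the partner of AHR, had a day 1 difference of 0.22 ± 0.09 (limma unadjusted p = 0.0181, adjusted p = 1). Its liver signal was above background on 10 of 21 arrays. The repressor gene Bcl6 had a day 1 difference of -1.18 ± 0.60 (limma unadjusted p = 0.0606, adjusted p = 1). Its SD in control livers at day 1 was 1.79. In control livers its difference, day 28 minus day 1, was -1.53 ± 0.66 (limma unadjusted p = 0.0306), which did not pass the adjusted threshold. The 5 tested electron donors and membrane partners, including the oxidoreductase gene Por, had median differences of -0.06 at day 28 and -0.25 at day 1. The 9 genes of haem synthesis and breakdown had medians of -0.03 and 0.00. In neither list did a gene have an adjusted p under 0.05.

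Among AHR targets outside the P450 set, none passed the test at day 1. Of 8 listed, 5 were tested, and at day 1 all 5 differences were below 0, where 47.8% of features were above 0. Their median was -0.31 (-0.17 with scan day in the model), with a range of -0.54 to -0.04. Nqo1, a quinone reductase, averaged -0.73 ± 0.35 in TiO2 and -0.31 ± 0.26 in control livers at day 1, a difference of -0.42 ± 0.19 (limma unadjusted p = 0.0391, adjusted p = 1). With scan day in the model the Nqo1 difference was -0.35 ± 0.11 (limma unadjusted p = 0.00404, adjusted p = 0.991). At day 28, 2 of the 5 targets were above and 3 below 0, with a median of -0.01. Ahrr was above background in liver on 2 arrays and Aldh3a1 on 0, and both were not tested. The listed Ugt1a6a was not found on the array.

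The 5 tested female-biased genes had median differences of 0.00 at day 28 and -0.10 at day 1, or 0.01 and -0.01 with scan day in the model. For the 4 male-biased genes the medians were -0.02 and -0.20, or 0.03 and -0.10 with scan day in the model. For zonation, 7 pericentral hepatocyte markers had medians of -0.09 at day 28 and -0.18 at day 1, and 6 periportal ones of 0.01 and -0.20. At day 1 all 7 and all 6 were below 0, where 47.8% of features were above 0. In the model with scan day all 7 and 5 of the 6 were below 0, with medians of -0.12 and -0.23, where 45.6% of features were above 0. The part of these shifts in the P450 differences was not tested.

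The acute phase genes stood apart from the P450 genes at day 1. Saa3, a serum amyloid gene, averaged 1.43 ± 1.46 in TiO2 and -0.97 ± 0.56 in control livers at day 1, a difference of 2.41 ± 0.50 (limma adjusted p = 0.758). Lcn2, which encodes an iron-carrier binding protein, averaged 1.84 ± 0.85 in TiO2 and 0.37 ± 0.17 in control livers, a difference of 1.47 ± 0.26 (limma adjusted p = 0.282). Saa1, another serum amyloid gene, had a day 1 difference of 1.77 ± 0.39. None of the 3 passed the adjusted threshold at day 1, with or without scan day in the model. In that day 1 comparison no P450 difference exceeded 0.43 in size from group means alone. At day 28 the differences were 0.05 ± 0.53 for Saa3, 0.37 ± 0.28 for Lcn2 and -0.01 ± 0.42 for Saa1. Over time in TiO2 livers, day 28 minus day 1, Lcn2 had -1.75 ± 0.25 (limma adjusted p = 0.00617). Saa3 had -2.46 ± 0.47 and Saa1 -2.01 ± 0.37 there, with limma adjusted p of 0.0714 and 0.0559. With scan day in the model these were 0.0161 and 0.0128.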

How the data were processed

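Each of 21 deposited scanner files (Agilent Feature Extraction 10.7.3.1 per the file headers, 9.5.3.1 per the submitters' processing notes) holds 1 liver, with 43379 non-control spots of 41174 probes. The deposited values used are the median spot and background intensity of both channels, which the scanner software extracted per the file headers. As an alternative served the deposited log10 ratio of red over green of the scanner software, per the file headers. The table of the authors' processed log2 values correlated at 0.9957 to 0.9971 with loess-normalized ratios made here without background subtraction. Its slope of 0.991 to 0.993 gives liver over reference on the log2 scale, its normalization step being not given in the sources used here, and its column medians were -0.058 to -0.011.

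Here, in R 4.3.3 with limma 3.58.1, backgrounds were corrected by normexp (offset 50), control spots left out, marked outlier spots (72 to 324 per array) removed, arrays normalized by loess, spots of a probe averaged and log2 ratios of liver over reference taken. Accessions gave 23374 probes a RefSeq symbol and left 17800 unnamed. Probes well above background in liver on at least 50% of the arrays of 1 or more groups were kept, which left 17624 features, 11239 of them named genes at their brightest probe. One limma model of 4 group means over all arrays gave the tests from group means alone. A further limma model added scan day as a fixed term. Both used Benjamini-Hochberg adjustment over all features and a threshold of 0.05. The scripts were tested on simulated data. Replicate numbers follow the order of deposit and only name mice. The number of arrays limits the precision. The members and the gene lists were chosen with earlier results of these data known. Named were a fixed list of members, per comparison those with an adjusted or unadjusted p under 0.05 and the 3 with the highest and lowest difference, and for the other members ranges or values. The listed genes Cyp2c50, Cyp2c69 and Cyp3a41b are not analysed here. Alternatives covered background correction, offset, scaling, filters, probe choice, array weights, scan day, slide and single arrays. Sequences were read with Python 3.11.15 from the RefSeq promoter table.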

Additional observations from a re-analysis of the deposited data

Results flagged for a closer look

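In the 4 groups of 4 to 6 mice, 38 named P450 genes, or 152 combinations of a gene and a group, were searched for a single value far from the others by Dixon's criterion. Chance alone marks about 1 in 20 groups, and 9 of the 152 combinations met it. Of these 9 values, 8 came from scan day 1. The part of the scan day in these values was not tested.

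On control day 1 replicate 1, Cyp2a12 stood at 4.69 beside 6.20 to 6.70 in the other control livers of that day. The same array had Cyp2d10 at 3.66 beside 4.49 to 4.76, Cyp2f2 at 4.83 beside 6.30 to 6.83, and Cyp4f13 at 0.64 beside 1.70 to 1.87. On control day 28 replicate 1, Cyp2d9 stood at 3.76 beside 5.78 to 6.19.

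In TiO2 livers, Cyp1a2 stood at 3.38 on day 28 replicate 2, beside 3.92 to 4.24 in the others. Cyp2d22 stood at 2.44 on day 1 replicate 2, beside 3.49 to 4.10, and Cyp4a12a at -0.21 on day 1 replicate 1, beside 0.14 to 0.18. The one value from scan day 3 was Cyp2a4 at 9.39 on day 28 replicate 5, beside 8.17 to 8.61.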

How the results depend on the processing

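The count of P450 genes with an adjusted p under 0.05 was 0 in all 5 comparisons, under the 12 alternative fits with all groups, the 21 fits that left out 1 array and the 3 that left out a scan day. Unadjusted, up to 8 genes were under 0.05 for control day 28 against control day 1, with scan day in the model. Without 1 array, the median TiO2 minus control difference ran from -0.17 (without control day 28 replicate 1) to 0.07 at day 28, and from -0.22 (without control day 1 replicate 1) to -0.02 at day 1. Scaling between arrays gave medians of 0.07 at day 28 and -0.17 at day 1. For control livers, day 28 minus day 1, the median of -0.11 became 0.06 without control day 28 replicate 1. Differences of named genes had the other sign in 218 of 1438 values at day 28 and 130 of 1438 at day 1. The values counted came from refits and from plain differences of means within 1 scan day. These sign changes were of differences that had not passed the test, and their cause was not tested.

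No paired analysis was possible because replicate numbers follow the order of deposit and tie no mice together. TiO2 and control arrays did share slides, and with slide as a random block (correlation 0.49) the count with an adjusted p under 0.05 was 0 in all 5 comparisons. Cyp1a1, Cyp1b1 and Cyp2j11 lay too close to background to test, and low reference signal limits the ratios of Cyp2c38, Cyp2j9, Cyp2j13 and Cyp2r1, whose reference channel was above background on 0, 2, 4 and 4 of 21 arrays.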

Other observations

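Cyp3a44 has a second probe above background, which was not used for the comparisons because it is the dimmer one. At day 28 it stood at 5.54, 5.49, 6.44, 6.44, 6.52 and 6.25 in TiO2 livers, against 4.34, 6.56, 5.01 and 4.82 in control livers, a difference of 0.93 (1.11 with scan day in the model). Of the 4 control livers, 3 lay below all 6 TiO2 livers and 1 above them. The brightest probe gave 0.10 (0.16 with scan day in the model). At day 1 the second probe stood at 5.22, 4.07, 6.60, 6.90, 4.85 and 7.56 in TiO2 livers, against 4.33, 6.53, 6.13, 5.03 and 5.99 in control livers, a difference of 0.27. The probe was picked out after its values were seen, and which copy of the Cyp3a genes it binds was not tested.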
